A study of Mus musculus with 2 samples.

Results

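Interneurons are the local inhibitory cells of the hippocampus, the brain region of memory formation, and 10 genes used to tell their types apart were examined here: Pvalb, Calb2, Sst, Npy, Vip, Cck, Nos1, Reln, Lamp5 and Lhx6. They were chosen by symbol, and all 10 were found among the 55536 annotated genes of the deposited tables, with 50 annotated transcripts. The series held 1 group of 2 libraries of polyadenylated RNA from tissue labelled layer of hippocampus, of C57BL/6 mice, strain B6NCrl, aged 6 months, each made from 20 ng of RNA with Nextera tagmentation. The labels name no treatment or engineered allele, and with 1 group no conditions could be compared. The libraries are labelled biological replicates 1 and 2 and share 1 donor identifier. Nothing says that they came from separate animals, so the spread between them may not be a spread between animals.

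Interneurons release GABA and are born mostly in the medial and caudal ganglionic eminences of the embryo. The medial eminence gives rise to fast-spiking basket cells with parvalbumin and to dendrite-targeting cells with somatostatin, while the caudal eminence gives rise to cells with vasoactive intestinal peptide, cholecystokinin or calretinin. Neurogliaform and ivy cells, which act by diffuse release, carry Npy together with Nos1, Reln or Lamp5. Several of these genes are not private to interneurons: pyramidal neurons also transcribe Cck, mossy cells of the mouse dentate gyrus contain calretinin, and Cajal-Retzius cells secrete reelin.

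The libraries held 38921662 and 39499350 expected reads in genes, and 14397 and 14235 genes reached 1 TPM, a level scaled for transcript length and depth. A text label calls the mice male, but Ddx3y, Eif2s3y and Uty, all on the Y chromosome, had 0 reads in both libraries and Kdm5d had 1 and 0, while Xist had 694 and 611. The X and Y values therefore go against that label in both libraries. Granule cell markers of the dentate gyrus were detected in 4 of 4 cases and glutamatergic neuron markers in 6 of 6. So were 7 of 7 markers of the thalamus, 5 of 6 of the neocortex and 6 of 6 of the striatum. Astrocyte, oligodendrocyte and microglia markers were detected in 5 of 5 cases each. Detection at 1 TPM alone does not show that a tissue was present. Replicate 1 stood apart in choroid plexus genes: 8 of 8 such markers were higher there, and their levels summed to 15265 TPM there against 131 TPM in the other library. The neocortex marker Rorb was also called higher in replicate 1, at 21.08 against 7.30 TPM (log2 ratio 1.48). The other neocortex markers tested went in both directions, and the list had a median log2 ratio of 0.17. The thalamus marker Tcf7l2 stood at 95.92 and 58.60 TPM without being called. All other thalamus markers were lower in replicate 1 on scaled counts, and the list had a median log2 ratio of -0.22. Whether and how far such tissues contributed to the values below was not tested. Levels are therefore given for each library.

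4 of the genes encode peptide precursors, and the stretch that becomes the peptide is shown because it separates Sst from the other three. Each was read from the M21 transcript on GRCm38, 5′ to 3′. In Sst the capitals are the 14 codons of somatostatin-14, followed by the stop codon, so the peptide is the end of the precursor. In Npy, Vip and Cck, the 36, 28 and 8 codons of the peptide are in lower case. The capitals there mark a glycine codon and 2 basic codons, the site of cleavage and of amidation of the peptide's end.
Sst, chr16:23889729-23889773, minus strand: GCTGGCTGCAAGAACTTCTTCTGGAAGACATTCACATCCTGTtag
Npy, chr6:49823682-49827501, plus strand, spliced: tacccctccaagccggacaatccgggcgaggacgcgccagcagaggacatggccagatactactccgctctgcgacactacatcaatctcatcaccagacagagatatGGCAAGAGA
Vip, chr10:5644024-5644116, plus strand: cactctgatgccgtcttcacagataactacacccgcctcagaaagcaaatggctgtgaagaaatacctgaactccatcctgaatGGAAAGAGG
Cck, chr9:121490098-121490130, minus strand: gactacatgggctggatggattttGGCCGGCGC
The Sst precursor had 116 residues and held 0 such amidation motifs, against 1 in the 97 residues of Npy, 2 in the 171 of Vip and 1 in the 115 of Cck.

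A second set of sequences shows the promoter letters that some of these peptide genes share. RefSeq windows of 250 bases before to 50 bases after each start on GRCm38.p6 matched 9 of the 10 genes, with 13 windows. Calb2 had no window and was not searched. Both strands were searched for TGACGTCA, the full cyclic AMP response element, for the shorter TGACGTC that lies inside it, for the variant TGCGTCA and for TATAAA. The 30 bases around a match, with the matched letters in capitals, were as follows.
Sst, chr16:23890874-23890903, minus strand: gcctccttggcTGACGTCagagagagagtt
Vip, chr10:5639128-5639157, plus strand: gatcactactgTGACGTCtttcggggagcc
Cck, chr9:121495725-121495754, minus strand: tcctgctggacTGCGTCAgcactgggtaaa
Counted from the RefSeq start, the match began at position -48 in Sst, -79 in Vip and -49 in Cck. The full TGACGTCA was present in 1.79% of 32851 promoter windows, and of these genes in Sst only. TGACGTC was in 3.21% of windows and in Sst and Vip, and TGCGTCA was in 2.12% and in Cck and Nos1. TATAAA was in 13.6% of windows and in Vip and Lhx6. Its matches began at -157, -147 and -30 in Vip. In Lhx6 it began at 3, after the start and on the strand opposite to the gene. The only Nos1 window lay at a RefSeq start 275 bases from the nearest M21 start, which held 1.58% and 1.13% of Nos1 TPM in replicates 1 and 2. The M21 start that held 98.1% and 98.4% of Nos1 TPM lay outside this window and was not searched. The M21 start of Sst lay 114 bases upstream of the RefSeq start, so the Sst match lies within the annotated span of Sst-201. These matches describe letters, and no binding was measured.

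All 10 genes were detected above 1 TPM in both libraries, over a 375-fold range of mean level from Cck to Lhx6. Their median level was 32.4 TPM, against 10.8 TPM over the 14356 genes with a mean of at least 1 TPM. Cck alone made up 69.7% of the summed TPM of the 10 genes in each library. In order of mean TPM the genes stood as Cck, Npy, Sst, Lamp5, Pvalb, Calb2, Vip, Reln, Nos1 and Lhx6. Neighbours in this order did not overlap between libraries, except that the range of Reln overlapped both Vip and Nos1. In bulk tissue, fewer cells of a type and less RNA per cell cannot be told apart, so this is an order of RNA levels and not of cell numbers.

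**Figure D1:**
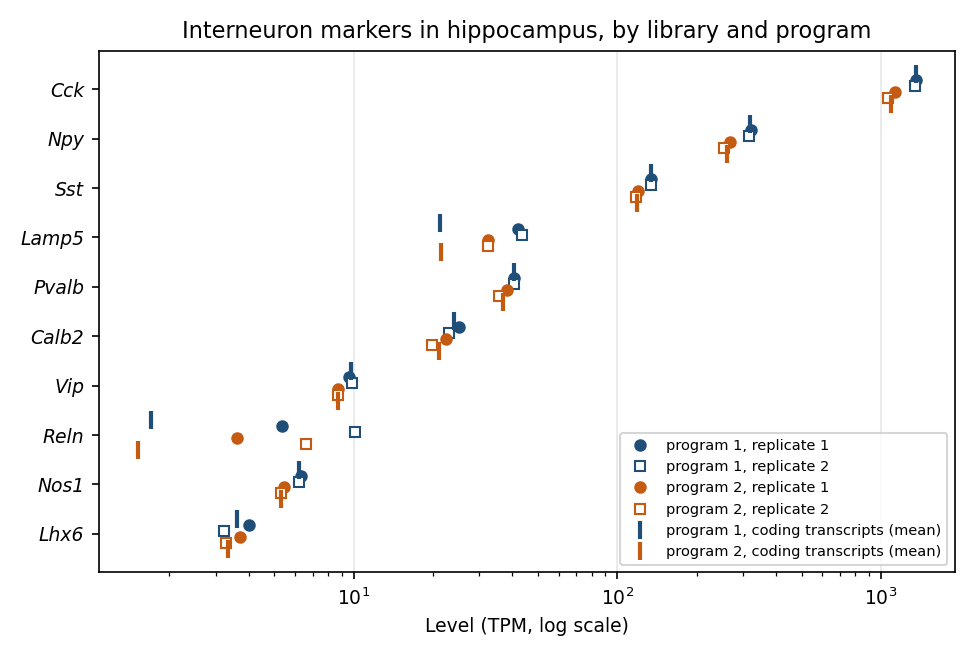
Level of each marker in TPM on a log axis, for replicate 1 (filled circles) and replicate 2 (open squares), by the first program (blue) and the second (orange); vertical ticks are means over protein-coding transcripts only. The 2 libraries lie close together for every gene but Reln, and the coding ticks fall far below the gene level for Lamp5 and Reln.

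Among the calcium-binding proteins, Pvalb, the parvalbumin of fast-spiking cells (chr15:78191114-78206400 on mm10, minus strand), stood at 40.57 TPM in replicate 1 and 40.66 TPM in replicate 2. Its mean was 40.6 ± 0.0636 TPM (SD, n = 2), from 1021 and 1055 reads. Calb2, which encodes calretinin (chr8:110137502-110168210, minus strand), stood at 25.14 and 23.06 TPM, from 969 and 907 reads. Calb2 was below Pvalb in both libraries, with no overlap.

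Npy, Sst and Cck were the 3 most abundant of the genes, and Vip was the least abundant of the peptide genes. Cck, the cholecystokinin precursor (chr9:121489824-121495694, minus strand), stood at 1357.07 and 1350.58 TPM, from 22135 and 22911 reads. It ranked 101 among all genes by mean TPM. Npy, the neuropeptide Y precursor (chr6:49822710-49829507, plus strand), stood at 322.13 and 316.16 TPM and ranked 459. Sst, the somatostatin precursor (chr16:23889573-23890958, minus strand), stood at 134.23 and 133.97 TPM and ranked 1096. Vip (chr10:5639218-5647617, plus strand) stood at 9.60 and 9.88 TPM, from 404 and 426 reads, and ranked 7515. Within a library, Sst was 3.31-fold and 3.29-fold above Pvalb, and Pvalb was 4.23-fold and 4.12-fold above Vip. These ratios of levels moved little between the libraries.

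Nos1, the neuronal nitric oxide synthase (chr5:117781032-117958840, plus strand), stood at 6.32 and 6.18 TPM. Its transcript is long, so this low level rested on 1903 and 1898 reads, more than the 1021 and 1055 of Pvalb. Lamp5, a membrane protein of neurogliaform cells (chr2:136052239-136069917, plus strand), stood at 41.84 and 43.65 TPM. Reln, the secreted glycoprotein reelin (chr5:21884454-22344702, minus strand), stood at 5.36 TPM in replicate 1 and 10.08 TPM in replicate 2, from 618 and 1006 reads. Its SD of 3.34 TPM on a mean of 7.72 TPM was the widest of the 10 genes relative to the mean. Lhx6, the transcription factor kept by interneurons of medial eminence origin (chr2:36081953-36105408, minus strand), was lowest at 4.02 and 3.21 TPM, from 331 and 307 reads. Genes annotated within the Nos1, Reln and Lhx6 loci held at most 2.07 reads. Whether strand was used in counting is not given in the sources used here.

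The libraries were compared gene by gene with a two-sided exact conditional binomial test on scaled counts, Benjamini-Hochberg adjusted over 14078 genes. Calls needed both an adjusted p under 0.05 and a log2 ratio of 1 or more in size. With 1 library on each side, this covers counting error only and compares libraries, not conditions. None of the 10 genes was called, against 2.41% of all genes tested. By direction, 0 of 10 were called higher in replicate 1, against 1.97% of all genes, and 0 of 10 higher in replicate 2, against 0.433%. At an adjusted p under 0.05 and any size, 2 of 10 differed by that exact test, Cck and Reln, against 47.2% of all genes. At an unadjusted p under 0.05 by the same test it was 3 of 10, against 7395 of all 14078 genes. With so few genes, none of these counts sets the 10 genes apart from the rest. Their median absolute log2 ratio was 0.06, against 0.16 over all genes tested.

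Reln was the one gene of the 10 that moved by more than a small amount. It was 1.62-fold lower in replicate 1 on scaled counts, a log2 ratio of -0.70 (95% exact interval -0.84 to -0.55, adjusted p = 1.93e-20). Its absolute ratio was larger than that of 94.5% of genes tested. Among 3887 genes with mean counts of 500 to 1500, 2.78% had as large an absolute ratio and 0.540% were as far in the same direction. With the dispersion of 0.01 preset in the exact test of edgeR, which allows for spread beyond counting, the adjusted p of Reln was 0.0383.

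Cck also passed the adjusted threshold, with a log2 ratio of -0.04 (interval -0.07 to -0.02, exact test, adjusted p = 0.00527), a difference that its depth made detectable. It missed that threshold in 3 alternatives by exact tests: the adjusted p of Cck was 0.073 with library totals as the scale, 0.153 by the second program and 1 with the preset dispersion. Of the others, Lamp5 had a log2 ratio of -0.09 (interval -0.18 to -0.003, adjusted p = 0.084 by the exact test). The intervals of Pvalb (-0.17 to 0.09), Calb2 (-0.03 to 0.24), Sst (-0.13 to 0.04), Npy (-0.09 to 0.03) and Nos1 (-0.08 to 0.10) included 0. The shallowest genes had the widest intervals, at -0.27 to 0.13 for Vip and -0.11 to 0.34 for Lhx6. Each interval gives the ratios that the counts leave possible under counting error only, and it is not a limit of detection.

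**Figure D2:**
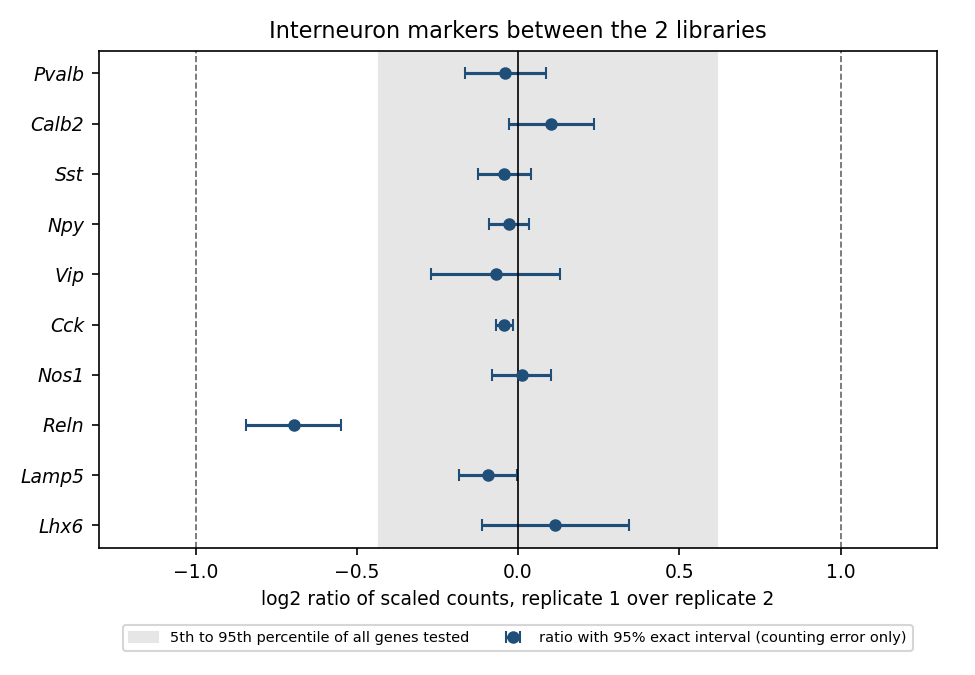
Log2 ratio of scaled counts, replicate 1 over replicate 2, for each marker with its 95% exact interval (counting error only); the grey band spans the 5th to 95th percentile of all genes tested (-0.43 to 0.62) and dashed lines mark the ratio needed for a call. Reln lies outside the band at -0.70, and the other 9 genes lie near 0.

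The transcripts behind Reln differed from those of the other genes. Reln-207 (11699 bases), the coding transcript of full length, was the only one above 1 TPM that codes, at 1.36 and 2.02 TPM. The short Reln-205 (891 bases, processed transcript) was higher, at 2.32 and 3.93 TPM. Reln-203 (2775 bases, retained intron) stood at 0.93 and 1.72 TPM, and Reln-215 (687 bases, processed transcript) at 0.75 and 2.27 TPM. These 3 transcripts start 11614, 48265 and 14592 bases from the 3′ end of a locus whose coding transcript starts 460248 bases from it. Transcripts annotated as not coding thus made up 74.6% and 79.8% of Reln TPM. By reads the picture was the reverse, since Reln-207 is long: it took 77.5% and 71.9% of Reln reads.

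All 4 of these Reln transcripts were higher in replicate 2. Of them, Reln-215 rested on only 12.17 and 38.51 expected reads in replicates 1 and 2. Its deposited bounds, whose level is not stated, overlapped at 0.132 to 1.41 TPM and 1.36 to 3.14 TPM. The ratio of TPM in replicate 2 to replicate 1 was 1.49 for Reln-207, 1.69 for Reln-205, 1.85 for Reln-203 and 3.03 for Reln-215. The size of the Reln difference therefore depended on the measure: 1.88-fold in gene TPM and 1.63-fold in expected counts, beside the 1.49-fold of its main coding transcript. The effective length that the first program gave Reln was 3784 bases in replicate 1 and 3214 in replicate 2. Markers of Cajal-Retzius cells, another known source of reelin, were low: 0 of 4 reached 1 TPM, and Trp73, Lhx1, Lhx5 and Nhlh2 together summed to 1.49 and 0.94 TPM. None of the 4 was at 0 in both libraries, and all were too shallow for the comparison between libraries. The part of these cells in the Reln difference was not tested.

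Lamp5 was divided almost evenly between a coding and a processed transcript. Lamp5-201, which codes, stood at 20.68 and 21.80 TPM, and Lamp5-202, which starts further into the gene, at 20.82 and 21.46 TPM. The second program gave Lamp5-201 a larger share, 65.4% and 67.6%, against 49.4% and 49.9% by the first. Over 12803 and 12799 protein-coding genes, respectively, the median share of TPM in transcripts that do not code was 1.76% and 1.86%, and 17.4% and 18.2% of these genes had a share of 30% or more. Reln and Lamp5 were among these in both libraries and both programs.

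Counting coding transcripts only changed the order of the genes. By the first program, Lamp5 fell from a place above Pvalb to one below Calb2, at a mean of 21.2 TPM, and Reln fell to the last place, at 1.36 and 2.04 TPM, below both libraries of Lhx6. The other 8 genes kept their order among themselves. By the second program Reln was also last, at 1.22 and 1.81 TPM, but Lamp5, at 21.2 and 21.8 TPM, overlapped Calb2, at 22.4 and 19.8 TPM. This count was chosen after seeing the transcript tables.

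In 7 of the 10 genes, 1 transcript held at least 90% of TPM. Sst and Npy have 1 annotated transcript each. Vip-201 held 99.8% and 100% of Vip, Nos1-206 98.1% and 98.4% of Nos1, and Cck-201 95.6% and 96.2% of Cck. Calb2-201 held 95.7% and 93.5% of Calb2 by the first program but 83.3% and 82.1% by the second, which gave the rest to Calb2-202. Of the 50 transcripts, 27 are protein-coding, and 10 were at 0 in every table, 6 of them from Reln and 3 from Nos1.

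Pvalb has 2 annotated start sites, and nearly all of its RNA was assigned to the one nearer the coding sequence. Pvalb-201 held 100% and 98.2% by the first program and 100% in both libraries by the second. Pvalb-202 stood at 0 and 0.74 TPM, and the deposited bounds on the latter, whose level is not stated, ran from 0.109 to 3.43 TPM. The 250 bases before each start are shown because they differ in composition, with CG pairs in capitals, from RefSeq on GRCm38.p6, minus strand.
Pvalb-201, chr15:78204238-78204487: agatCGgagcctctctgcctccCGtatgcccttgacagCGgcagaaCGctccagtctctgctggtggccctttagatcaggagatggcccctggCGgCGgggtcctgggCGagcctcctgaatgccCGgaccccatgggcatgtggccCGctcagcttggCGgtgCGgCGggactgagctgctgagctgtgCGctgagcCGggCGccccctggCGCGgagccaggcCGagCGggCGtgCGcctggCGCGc
Pvalb-202, chr15:78206401-78206650: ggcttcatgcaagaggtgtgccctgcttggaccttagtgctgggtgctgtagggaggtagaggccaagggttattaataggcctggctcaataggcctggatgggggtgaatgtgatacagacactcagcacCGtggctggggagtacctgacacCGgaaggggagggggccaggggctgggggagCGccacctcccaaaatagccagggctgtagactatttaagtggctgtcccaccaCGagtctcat
The window of the start in use held 23 CG pairs and 71.6% G and C, and that of the other held 4 and 58.4%. The median over all promoter windows was 6 CG pairs and 52.4%. No methylation or binding was measured here.

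Lhx6 had the least settled transcripts of the 10. Lhx6-204 held 51.1% of TPM in replicate 1 and 77.9% in replicate 2, and Lhx6-202 21.8% and 4.36%. Both begin at the same start, which together held 73.0% and 82.2% by the first program and 64.0% and 58.0% by the second. Lhx6-201 held 6.45% and 17.8%, and Lhx6-206 16.1% and 0%. The second program, in contrast, gave Lhx6-206 25.6% and 17.4%, and gave Lhx6-209, which does not code, 1.49% and 6.36%. Lhx6-204 was first in every table, while the places after it differed between libraries and programs.

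**Figure D3:**
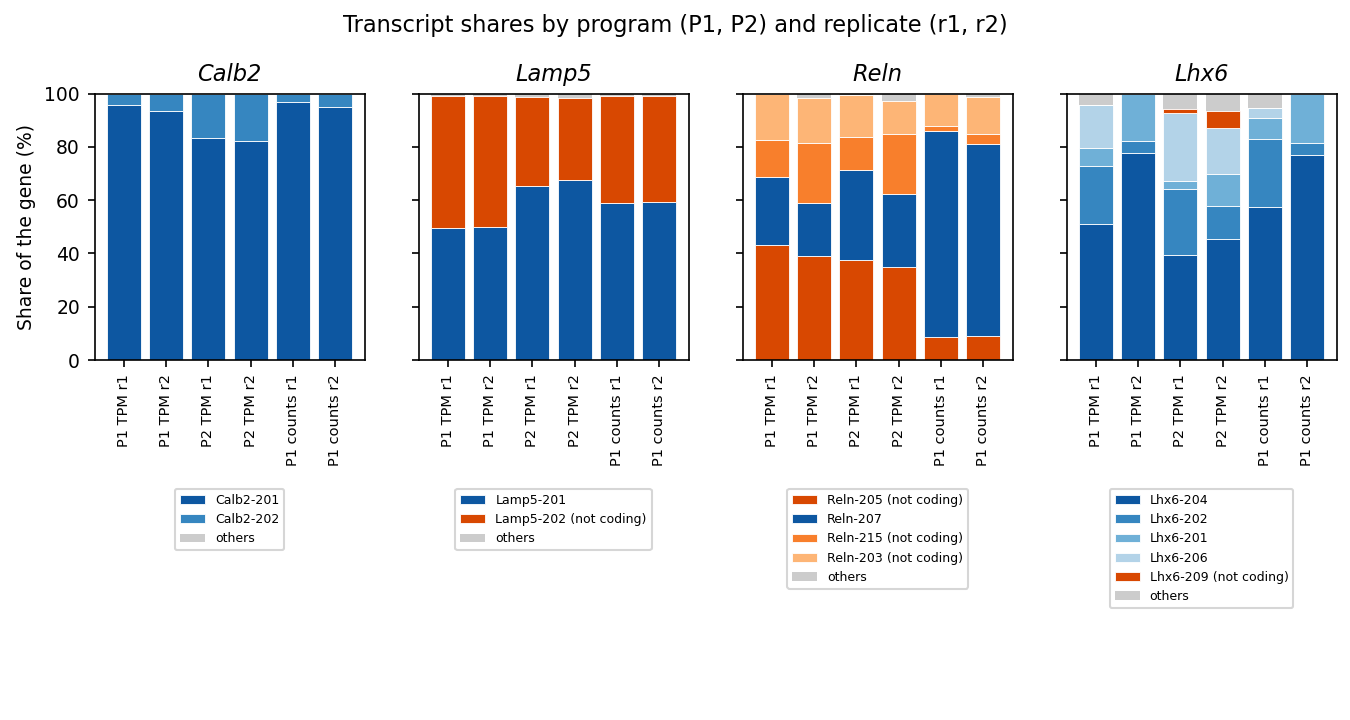
Share of each gene held by its transcripts, in percent, for the 4 genes with more than 1 transcript at 5% or above; bars are TPM by the first program (P1), TPM by the second (P2) and reads by the first, in replicates 1 and 2 (r1, r2). Coding transcripts are blue and others orange: the blue share of Reln is the smaller part of TPM and the larger part of reads (77.5% and 71.9% for Reln-207).

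The second program gave lower levels for 9 of 10 genes in both libraries, as it did for most genes. The ratio of its TPM to that of the first had a median of 0.876 in replicate 1 and 0.857 in replicate 2 over the 10 genes. Over 9780 genes at 5 TPM or more the medians were 0.848 and 0.822, with 10th to 90th percentiles of 0.770 to 0.995 and 0.746 to 0.979. Reln had the lowest ratio of the 10, 0.675 and 0.655, below those ranges, and Lamp5 followed at 0.773 and 0.737. Lhx6 had 0.923 and 1.02. By this program Pvalb, at 38.1 and 35.6 TPM, stood above Lamp5, at 32.4 and 32.2 TPM. Its Nos1 mean also passed its Reln mean, although their ranges overlapped.

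Set against the GABA-synthesising enzymes Gad1 and Gad2, summed, the genes fell on both sides of 1. Gad1 stood at 123.95 and 120.86 TPM, and Gad2 at 32.34 and 28.09 TPM. Cck was 8.68 and 9.07 times this sum and Npy 2.06 and 2.12 times, while Sst was 0.859 and 0.899 of it. Pvalb was 0.260 and 0.273 of the sum, Lamp5 0.268 and 0.293, Calb2 0.161 and 0.155, and Vip 0.0614 and 0.0663. Nos1 was 0.0404 and 0.0415 of it, Lhx6 0.0257 and 0.0216, and Reln 0.0343 and 0.0677. Glutamatergic markers, which include cells that also transcribe Cck, summed to 2070 and 2440 TPM, and mossy cell markers, beside Calb2, to 19.2 and 15.3 TPM. The part of these cells in Cck and Calb2 was not tested.

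The genes that work beside the 10 were taken as 11 lists with 72 genes. By the exact test, 1 of the 65 deep enough to test was called, against 2.41% of all genes. Their median log2 ratio was -0.06 and median absolute ratio 0.19. The called gene was Sp8, a transcription factor of caudal eminence cells, at 5.41 and 2.60 TPM, which was higher in replicate 1 (log2 ratio 1.06, exact test, adjusted p = 1.36e-29). It is also the lowest of its list by mean level, although Adarb2 was below it in replicate 1, at 3.36 TPM.

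Genes shared by all interneurons were detected in 8 of 9 cases, and the lowest was the homeobox gene Dlx6 at 0.89 and 1.04 TPM. Of 7 medial eminence genes beside Lhx6, 5 reached 1 TPM in both libraries. The highest was the synaptic ligand Nxph1, at 20.34 and 21.49 TPM, and the lowest by mean level Nkx2-1, the embryonic regulator of Lhx6, at 0.25 TPM in both. Lhx8 was below it in replicate 2, at 0.19 TPM. All 6 caudal eminence genes were detected, and the nuclear receptor Nr2f2 was highest by mean level, at 16.71 and 13.88 TPM, although Prox1 was above it in replicate 2, at 14.08 TPM. Prox1 is also among the granule cell markers counted above, and the part of those cells in its level was not tested.

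The genes that accompany Pvalb and Sst in their cells stood below these markers. All 6 parvalbumin cell companions were detected, from the fast potassium channel gene Kcnc2, at 17.41 and 18.58 TPM, to the hormone gene Pthlh, at 2.38 and 2.45 TPM, all below Pvalb. Of 8 somatostatin cell companions, 5 were detected, led by the CRH-binding protein gene Crhbp at 33.66 and 30.98 TPM. The lowest, the nicotinic receptor gene Chrna2, stood at 0.07 and 0.23 TPM. All 5 neurogliaform and ivy cell companions were detected, from the transcription regulator Id2, at 144.12 and 125.49 TPM, to the vesicle protein gene Sv2c, at 3.19 and 2.40 TPM and lowest by mean level. Ndnf was below Sv2c in replicate 1, at 2.78 TPM. Id2 stood above Lamp5 in both libraries, and the part of other cells in the Id2 level was not tested. Of 5 companions of Vip and Cck cells, 4 were detected, and the chemokine Cxcl14 was highest by mean level, at 31.82 and 34.94 TPM, although Cnr1 was above it in replicate 1, at 36.47 TPM. Slc17a8, a vesicular glutamate transporter, was lowest at 0.24 and 0.13 TPM.

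Genes of prohormone processing, which include convertases, their chaperone and inhibitor, and the amidating enzyme, were detected in 6 of 6 cases. Of these the carboxypeptidase Cpe was highest, at 2441 and 2566 TPM, and the convertase Pcsk1 lowest, at 3.77 and 3.69 TPM. Pam, which amidates peptides that end in the glycine shown above, stood at 92.14 and 75.22 TPM. In the reelin pathway, 7 of 7 genes were detected, from the adaptor Dab1, at 79.27 and 99.33 TPM, to the receptor Lrp8, at 3.52 and 3.07 TPM, and none was called. Of the 7 in the nitric oxide pathway, all detected, the nitric oxide synthase partner Dynll1 was highest, at 292.77 and 284.28 TPM, and the kinase gene Prkg2 lowest, at 1.52 and 1.67 TPM. Among 6 other EF-hand proteins, the family of parvalbumin and calretinin, 5 were detected. Ocm, the oncomodulin relative of Pvalb, was lowest at 0.13 and 0.17 TPM and was the one not detected.

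**Figure D4:**
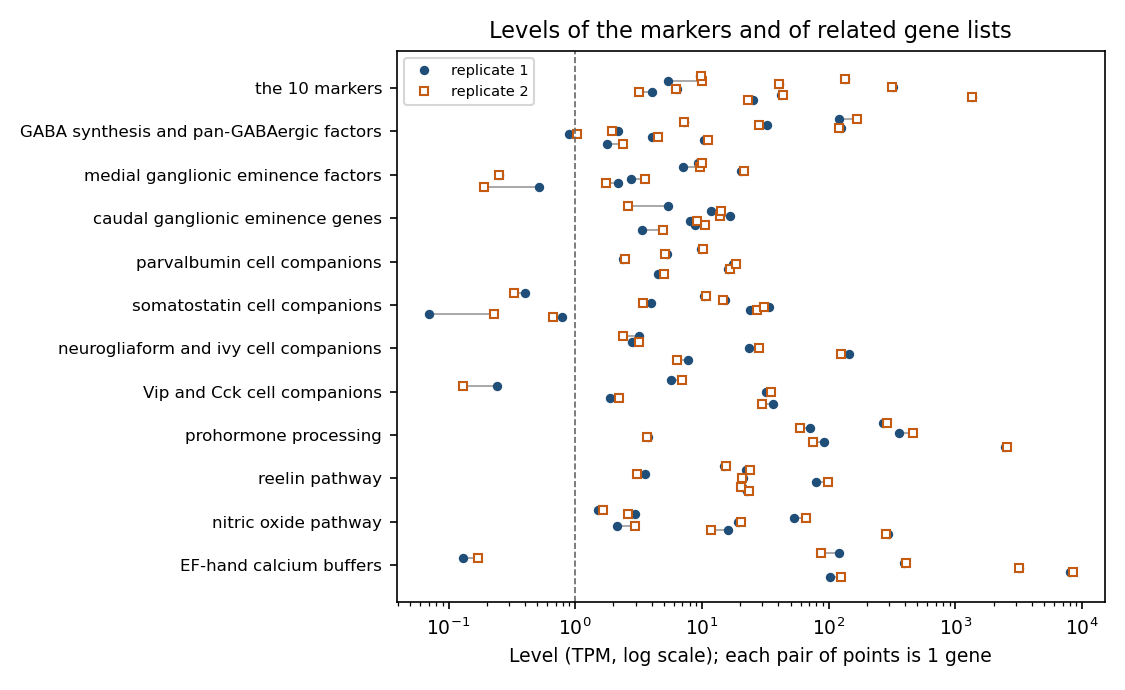
Level in TPM on a log axis for the 10 markers and the genes of 11 related lists; each gene is a pair of points, replicate 1 (filled circle) and replicate 2 (open square), joined by a line, and the dashed line marks 1 TPM. All 10 markers lie right of the dashed line, while lists such as the medial eminence factors and somatostatin cell companions reach below it.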

How the data were processed

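Polyadenylated RNA of 2 libraries in 1 group was analysed. Per the file headers, the deposited gene and transcript tables hold expected counts, TPM and FPKM from a first program, and a second program's transcript tables hold estimated counts and TPM. The assembly (mm10) and annotation (M21) come from the text deposited beside the tables, and the names of the programs were not given in the sources used here. The 10 genes and all lists were chosen with earlier results of these data known. The named list genes are the highest and lowest of each list by mean TPM, Gad1, Gad2 and every called gene, of which some are not reported here; Pam, Prox1, Cnr1, Ndnf, Lhx8, Rorb, Tcf7l2, the Cajal-Retzius markers and the sex-linked genes were named outside this rule. Second-program values were summed per gene.

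Expected counts were rounded, and 26345 rows that name no gene (9 and 6.49 reads, 2.31e-05% and 1.64e-05%) were left out. Libraries were scaled by TMM (edgeR 4.0.16, R 4.3.3). Genes with a mean count of at least 50 were compared by the exact binomial test (scipy 1.17.1), with a prior count of 0.5 in log2 ratios; the step was tested on simulated data. No molecular identifiers were counted, so reads are not independent molecules and intervals cover counting error only. The alternatives were FPKM, the second program, TPM without mitochondrial genes, other scalings (DESeq2 1.42.0 size factors, library totals) and filters, a preset dispersion, log2(TPM + 1), Slc32a1 as reference, leaving out a library and, added after seeing the data, coding transcripts only. A planned comparison of protein sequences was not made, and coding stretches are shown instead.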

Additional observations from a re-analysis of the deposited data

How the results depend on the processing

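No paired analysis was possible because the series holds 1 group. Leaving out a library leaves the comparison between libraries with no value. The number of the 10 genes called stayed at 0 under all 7 other fits. Reln kept its direction in every setting, between -0.80 and -0.60. Directions near 0 turned in 5 cases: with the second program for Pvalb (0.00576) and Nos1 (-0.0233), and on the log2(TPM + 1) scale for Sst (0.00278), Npy (0.0269) and Cck (0.00691). The median level of the genes, 32.4 TPM, was 25.4 in FPKM, 26.7 TPM by the second program, 36.1 TPM without mitochondrial genes and 22.7 TPM over coding transcripts, and 31.9 to 32.9 TPM with 1 library left out. The median ratio between programs, 0.866, ranged from 0.857 to 0.876 with 1 library left out. The median log2 difference of the ratios to Gad1 and Gad2, -0.06, was 0.0169 against Slc32a1 and 0.0749 by the second program. Genes with 1 transcript at 90% or more numbered 6 by the second program, against 7. A mean count of at least 10 in place of 50 raised the called genes of the related lists from 1 to 2, adding Lhx8 (27 and 7 reads), since more genes were then tested. The shares of called genes over all genes were 4.27% there and 2.41% in the main comparison. In FPKM and without mitochondrial genes, the 10 genes of a library were all rescaled by the same factor, so those medians moved by construction. The causes of the remaining changes were not tested. Vip and Lhx6, with at most 426 reads each, were the least precise.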
